A study of Mus musculus with 4 samples.

Results

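Teneurins are the subject of this account, as 64 regions of captured DNA over the genes Tenm2, Tenm3 and Tenm4, out of 39231 regions listed for the whole genome. A region was taken as a member when at least 1 bp of it overlapped the RefSeq body of 1 of these genes or the 2000 bp on either side, in mm10 (GRCm38) coordinates. By that rule Tenm2 held 7 regions, Tenm3 45 and Tenm4 12. The genes were chosen by the number of regions they carry in this same comparison, so their counts and densities are given as a description and no test is made of them. The cells were satellite cells, the stem cells of skeletal muscle, from hindlimb muscles of mice aged 9 weeks and cultured for 3 days. One group of mice had been injected with tamoxifen in corn oil on 5 days to trigger Cre recombination, which makes the satellite cells Uhrf1-deficient. The other was the oil control. The Cre driver, the Uhrf1 allele, whether the oil mice carry the same alleles, the number of mice and whether cells were pooled are not given in the sources used here. DNA was separated with an MBD2-based kit into methylated and non-methylated parts, giving 4 libraries in 4 groups of 1 sample. The data are a list of genome regions, which shows neither gene expression nor the loss of Uhrf1, so cell identity and deletion could not be checked in it.

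Teneurins are large proteins that span the cell membrane once and hold neighbouring cells together through their outer part. They bind each other, the latrophilin receptors (the Adgrl genes) and, together with latrophilins, the FLRT proteins, and they are best known for matching up neurons when circuits and synapses form. In muscle, Tenm4 is known as a gene of satellite cells, where its product restrains differentiation. Uhrf1 brings the maintenance methyltransferase Dnmt1 to newly copied DNA, so that methyl groups on CpG sites are passed on when cells divide.

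The values come from 1 list, in which the authors compared the oil library with the tamoxifen library. All of its regions are places where the oil signal exceeded the tamoxifen signal, so a lower tamoxifen value is a condition of being listed and not a finding about these genes. With duplicates removed, 19534328 tags were left for oil and 25614791 for tamoxifen. The fold used throughout is the authors' own value, the oil tags over a region's summit plus 1, divided by the scaled tamoxifen tags plus 1. Tags are printed unscaled, and the limits beside a fold are exact 95% (Clopper-Pearson) limits of the scaled ratio of tags, which cover counting error only. Each treatment has 1 library, so no spread between mice or cultures is known, and the deletion cannot be told apart from tamoxifen itself, the animals or the culture. The list does not name the DNA part it was made from, and it is read here as the methylated part.

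Pooled over the 3 genes, 45 of the regions being those of Tenm3, the strength of the regions was near that of the whole list. Over the 64 regions the median was 48 oil tags, 12.5 tamoxifen tags and a fold of 4.66, beside 51, 14 and 4.61 over all listed regions. Scaled tamoxifen tags stood at a median of 19.9% of the oil tags in the teneurin regions and 20.1% in all regions. A fold of 4 or more was found in 42 of the 64 (65.6%), next to a background of 66.1% of all listed regions, so the share was near the background. The folds ran from 2.14 to 8.68, and none of the 64 reached 10. Such folds were rare in the whole list as well, at 797 of 39231 regions. With the tamoxifen tags left unscaled, 58 of the 64 would still have passed the authors' limit, as would 37137 of the 39231 listed regions.

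**Figure D1:**
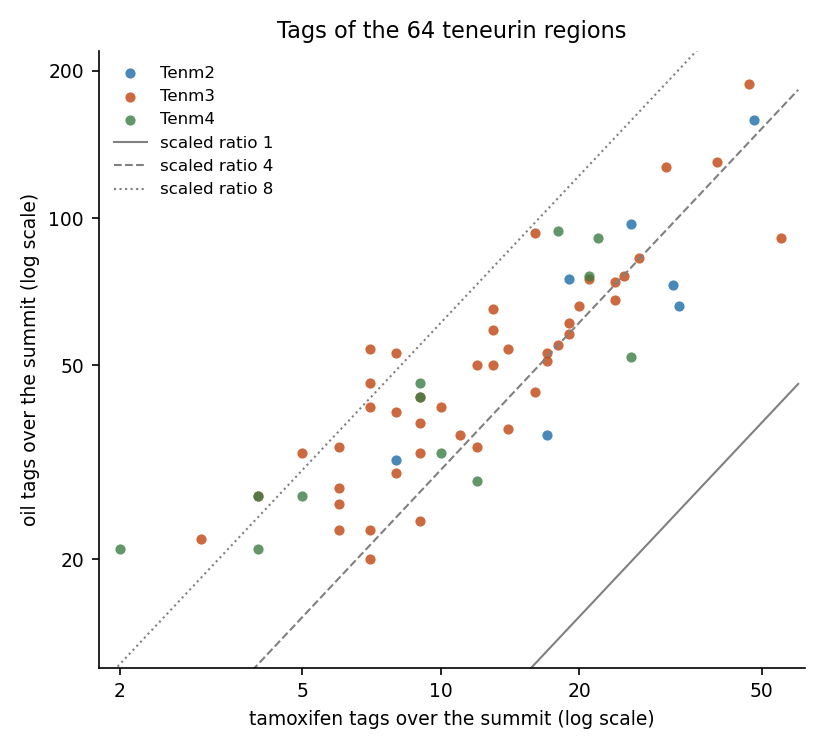
Each point is 1 of the 64 regions, with tamoxifen tags on the horizontal and oil tags on the vertical axis (both log scales, unscaled tags over the summit). The lines mark equal scaled ratios of 1, 4 and 8. All points lie above the line for a ratio of 1, and the Tenm4 point at 2 tamoxifen tags stands for 2 or fewer.

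By gene, the folds overlapped widely. Tenm4 had a median fold of 5.51 (quartiles 4.38 and 6.10), Tenm3 4.47 (3.84 and 5.60) and Tenm2 4.25 (2.78 and 4.68). Scaled tamoxifen tags amounted to a median of 15.4% of the oil tags in Tenm4, 19.9% in Tenm3 and 23.0% in Tenm2. The lowest folds of the genes were alike, at 2.54, 2.14 and 2.56 in the same order. Their highest values were 7.10, 8.68 and 4.91, from 12, 45 and 7 regions, and a highest value tends to rise with the number of regions. Of the 7 Tenm2 regions, 3 were among the lowest 10% of all listed folds. Over the 64 regions of the 3 genes 6 were, near that share, and 3 were among the highest 10%. Regions within a gene share 2 libraries and are not replicates, so these differences were not tested.

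The DNA just before the listed starts of these genes held no region. The 4 windows below are the 250 bases before each start that the RefSeq promoter table (GRCm38.p6) lists for the genes, 5′ to 3′ on the coding strand. They are shown as the listed promoter windows of the genes and because MBD2 captures DNA through methylated CpG. The listed start lay 293 kb inside the RefSeq body of Tenm2 and 848 kb inside that of Tenm3. Whether any of these windows acts as a promoter in satellite cells was not tested. The dinucleotide CG, which reads the same on both strands, is in capitals.
Tenm2: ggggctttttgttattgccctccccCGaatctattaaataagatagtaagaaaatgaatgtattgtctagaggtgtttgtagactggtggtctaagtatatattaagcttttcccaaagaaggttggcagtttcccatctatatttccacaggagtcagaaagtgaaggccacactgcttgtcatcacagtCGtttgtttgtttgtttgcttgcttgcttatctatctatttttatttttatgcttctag
Tenm3: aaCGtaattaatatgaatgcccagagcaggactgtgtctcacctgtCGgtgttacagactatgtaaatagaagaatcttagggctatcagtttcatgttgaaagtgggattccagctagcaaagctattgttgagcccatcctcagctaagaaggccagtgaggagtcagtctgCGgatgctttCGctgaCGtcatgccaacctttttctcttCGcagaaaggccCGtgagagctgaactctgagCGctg
Tenm4 outer start: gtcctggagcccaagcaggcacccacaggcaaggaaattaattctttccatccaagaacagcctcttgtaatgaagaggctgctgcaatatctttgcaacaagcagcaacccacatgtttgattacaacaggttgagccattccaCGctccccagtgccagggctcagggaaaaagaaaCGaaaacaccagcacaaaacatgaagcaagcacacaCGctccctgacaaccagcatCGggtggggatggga
Tenm4 inner start: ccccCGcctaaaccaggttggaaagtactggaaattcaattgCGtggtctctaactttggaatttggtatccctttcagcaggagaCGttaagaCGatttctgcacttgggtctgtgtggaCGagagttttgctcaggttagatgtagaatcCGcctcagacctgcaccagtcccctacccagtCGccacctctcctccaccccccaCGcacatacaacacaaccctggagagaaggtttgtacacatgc

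The Tenm2 window (chr11:36944242-36944491, minus strand) held 2 CpG sites, fewer than most listed windows, since only 18.8% of 32851 such windows held less. The Tenm3 window (chr8:48674691-48674940, minus strand) and the inner Tenm4 window (chr7:96211421-96211670, plus strand) held 8 each, more than 57.0% of windows. The outer Tenm4 window (chr7:96170994-96171243, plus strand) held 4, more than 37.8%. Over all windows the median was 6, and 92.1% held at least 1 CG. A listed region overlapped 380 of the windows (1.16%), so an empty promoter window was the common case. The nearest listed region lay 1607 bp from the Tenm3 window, 66.1 kb from the inner and 101 kb from the outer Tenm4 window, and 392 kb from the Tenm2 window. The sequences under the regions themselves were not analysed here.

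Tenm3, a teneurin known from the wiring of the hippocampus and the visual system, spans chr8:48225665-49522824 on the minus strand, so that its 3′ end is the lower coordinate. Its 45 regions covered 12.7 kb, 0.98% of the gene, with a median length of 260 bp and a density of 3.46 per 100 kb (exact Poisson 95% limits 2.52 to 4.63, counting error only and taking regions as independent). They became more frequent towards the 3′ end. In 10 equal parts of the gene, counted from its start, there were 0, 0, 0, 2, 3, 3, 4, 6, 13 and 14 regions. The whole stretch chr8:49107880-49522824 at the start of the gene, 415 kb or 32.0% of it, had no listed region.

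The regions lay close together in the 3′ part of Tenm3. The fullest 100 kb, chr8:48277500-48377499, held 14 of the 45. The median gap between neighbours was 11.5 kb, and 5 gaps were under 1000 bp. In the closest pair, 134 bp apart, chr8:48366486-48366771 had 46 oil tags against 7 in tamoxifen (fold 7.42) and chr8:48366906-48367380 had 50 against 13 (fold 4.67). Such pairs may not be separate measurements, since tags were extended to 201 bp, and joining regions less than 1000 bp apart left 40. The lncRNA gene Gm51531 also lay under 2 of the 45 regions, chr8:48323050-48323254 (28 against 6 tags, fold 5.20) and chr8:48330556-48330796 (59 against 13 tags).

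The strongest Tenm3 region by fold, chr8:48684272-48684596, had 54 oil tags against 7 in tamoxifen. Its fold of 8.68 (limits 4.59 to 26.4) was above 95.4% of all listed regions. It lay 9744 bp before the listed start, in the part of the gene upstream of it. The weakest was also the one nearest the 3′ end, chr8:48228207-48228502, with 91 oil tags against 55. Its fold of 2.14 (limits 1.54 to 3.09) was above only 1.11% of all regions. That region would not have passed the authors' limit with unscaled tamoxifen tags (fold 1.64). The best covered region, chr8:49087369-49087640, had 188 oil tags against 47 (fold 5.13, limits 3.79 to 7.38), more oil tags than 98.7% of the list. It lies in the sparse upstream part, next to the region nearest the gene's start (chr8:49107659-49107879, 76 against 25 tags, fold 3.84). The longest, chr8:48739999-48740525, measured 527 bp and had 75 against 21 tags (fold 4.47). The last 25% of the gene held 32 of the regions at a median fold of 4.23, and the other 13 had a median of 5.02. This difference in medians was not tested, and high folds stood in both parts. Further ones were chr8:48785062-48785319 (53 against 8 tags, 7.60), before the last 25%, and chr8:48546326-48546652 (93 against 16, 7.12), within it.

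The start listed for Tenm3, at position 48674690, divides the gene unevenly. Downstream of it lie 449 kb with 34 regions, 7.57 per 100 kb. The remaining 848 kb upstream, which the RefSeq gene table includes in the gene, hold 11 regions, 1.30 per 100 kb. The Tenm3 region closest to the authors' q limit of 1e-04 was also upstream, chr8:48758654-48758909, with 20 against 7 tags and a -log10 q of 4.53. The lowest -log10 q of the whole list was 4.01. Weaker differences are not in the list.

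Tenm4, the satellite cell teneurin, spans chr7:96171244-96911093 on the plus strand and held 12 regions, 1.61 per 100 kb (limits 0.834 to 2.82). They covered 3.24 kb, 0.438% of the gene, and none overlapped another annotated gene. Towards the 3′ end they were again more frequent, with 9 in the last of 3 equal parts of the gene and 1 in the first. The one nearest the start, chr7:96277755-96278015, lay 106.6 kb into the gene and had 76 oil tags against 21 (fold 4.53, limits 2.90 to 8.10). It was followed by the longest gap, 166 kb without a listed region (chr7:96278016-96444259).

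Tag numbers at Tenm4 were lower than at the other 2 genes, with a median of 38 oil and 9.5 tamoxifen tags. The best covered region, chr7:96771295-96771550, had 94 against 18 tags, a fold of 6.45 (limits 4.11 to 12.1). The one nearest the 3′ end, chr7:96908407-96908702, lay 2.54 kb before it and had 91 against 22 tags (fold 5.18, limits 3.38 to 9.08). The highest fold, 7.10 at chr7:96887359-96887588, rests on 21 oil tags against 2 or fewer tamoxifen tags and was set by the genome mean that the caller uses as its lowest background, so its size is not resolved. The next highest, 6.91 at chr7:96702700-96703037, had 27 against 4 tags (limits 3.08 to 34.8). The closest neighbours of Tenm4 were 4316 bp apart, so no region needed joining. Its weakest and longest region, chr7:96549976-96550379 with 404 bp, had 52 against 26 tags (fold 2.54, limits 1.61 to 4.38). This region and chr7:96874251-96874482 (29 against 12 tags, fold 2.96) would not have passed the authors' limit with unscaled tags.

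Tenm2, a teneurin found at synapses as a partner of latrophilins, spans chr11:36006656-37237053 on the minus strand and is nearly as long as Tenm3. It held 7 regions, 0.567 per 100 kb (limits 0.228 to 1.17), which covered 2.19 kb or 0.178% of the gene. From its start, the first 685 kb (chr11:36552003-37237053, 55.7% of the gene) had no listed region.

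Of the 7 regions of Tenm2, 4 lay within 20.4 kb of the 3′ end. The first of them, chr11:36007364-36007866, was the best covered and the longest of the gene, at 503 bp, with 159 oil tags against 48 (fold 4.25, limits 3.13 to 6.13). The other 3 were the weakest of the gene. At chr11:36023696-36024019 there were 73 against 32 tags (fold 2.91), at chr11:36024714-36024914, 694 bp further on, 66 against 33 (fold 2.56, limits 1.70 to 4.11), and at chr11:36026894-36027270 36 against 17 (fold 2.65). Each of these folds was above fewer than 10% of all regions, and the last would not have passed the authors' limit with unscaled tags.

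The remaining 3 Tenm2 regions had similar folds and lay further inside the gene. They were chr11:36152905-36153200 with 97 against 26 tags (fold 4.71), chr11:36428220-36428420 with 32 against 8 (4.65) and chr11:36551714-36552002 with 75 against 19 (4.91, limits 3.10 to 9.07). The last of these is the highest of the gene and the nearest to its start. All 4 regions near the 3′ end also overlapped the lncRNA gene Gm42072, and that at 36428220 overlapped the lncRNA gene Gm33585. Only 2 of the 7 were over Tenm2 alone, so their assignment to Tenm2 is shared with these genes.

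**Figure D2:**
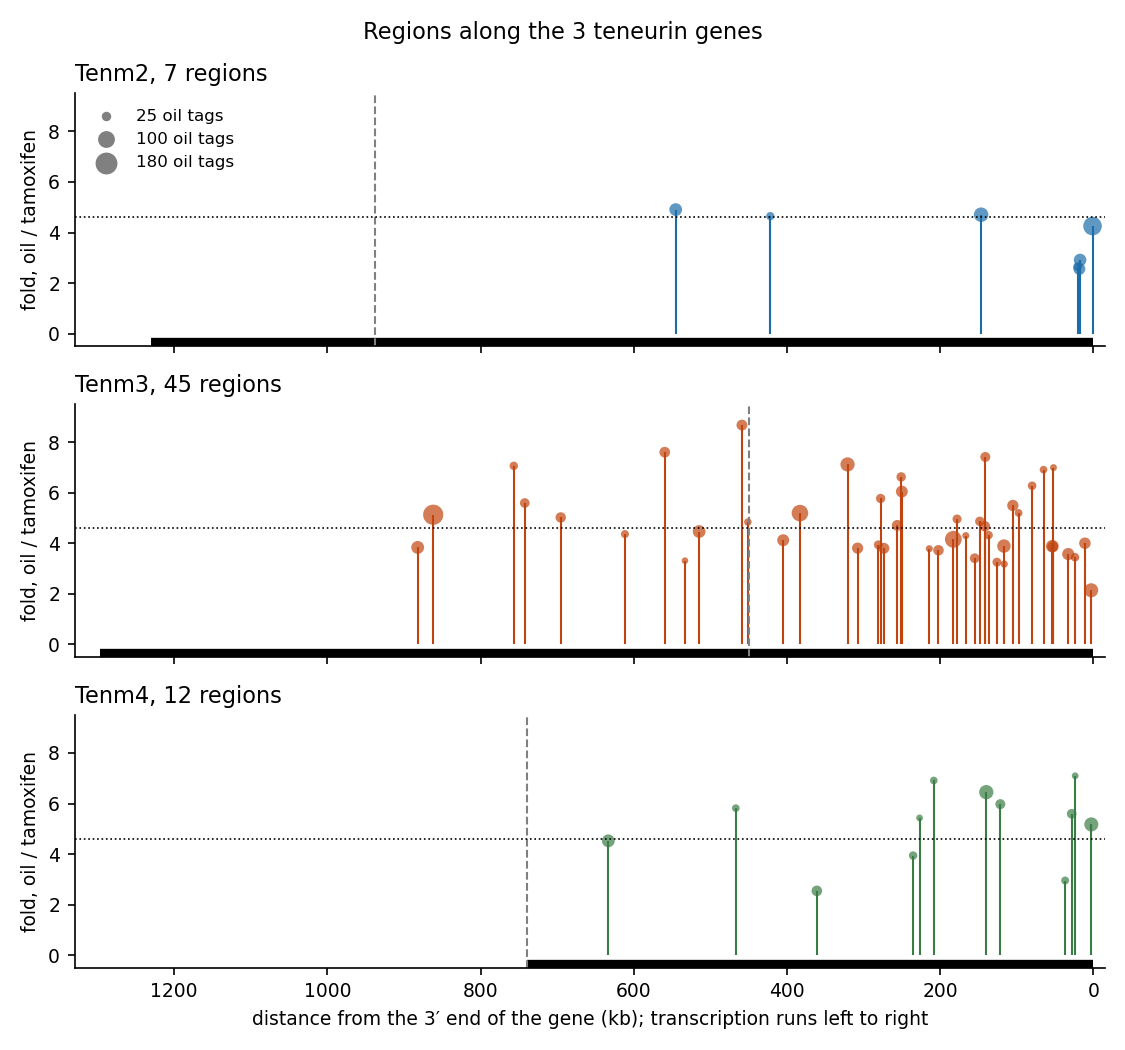
Each stem is 1 region at its distance from the 3′ end of the gene in kb, with the fold of oil over tamoxifen as its height and a point whose area grows with the oil tags. The black bar is the gene, the dashed line its outermost listed start and the dotted line the median fold of all regions, 4.61. In all 3 genes the stems crowd to the right, the 3′ end.

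Each gene was divided into 3 equal parts from start to 3′ end, and all 3 genes had most of their regions in the 3′ part, 34 of 45 in Tenm3 (75.6%, exact 95% limits 60.5% to 87.1%), 9 of 12 in Tenm4 (75%, 42.8% to 94.5%) and 5 of 7 in Tenm2 (71.4%, 29.0% to 96.3%). Together that is 48 of 64 (75%), with 14 in the middle part and 2 in the start part. These limits ignore that neighbouring regions may not be independent. In the other 176 protein-coding genes of 500 kb or more whose strand the promoter table gives, 434 of 990 regions (43.8%) lay in the 3′ part. Among the 48 such genes with 7 or more regions, members included, Tenm3 ranked the second highest, Tenm4 the third and Tenm2 shared a value with Pde4d and Rad51b, at 71.4%. The limit of 7 is the count of Tenm2, and the ranks depend on it. Genes with fewer regions, not ranked, ran from 0% (such as Lrmda, 6 regions) to 100% (such as Schip1, 5 regions). Dlgap1 was the highest (80.0%), Robo1 (72.7%) and Nav2 (72.2%) lay between Tenm4 and Tenm2, and the median of the 45 others was 40.0%. The difference from the other genes was not tested, and the Tenm3 value depends on where the gene is taken to start. Measured from its listed start, 18 of 34 regions of Tenm3 (52.9%) lay in the 3′ part of that shorter span. With all genes measured this way, the share was 32 of 53 (60.4%) in the 3 teneurin genes and 44.1% in the others.

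**Figure D3:**
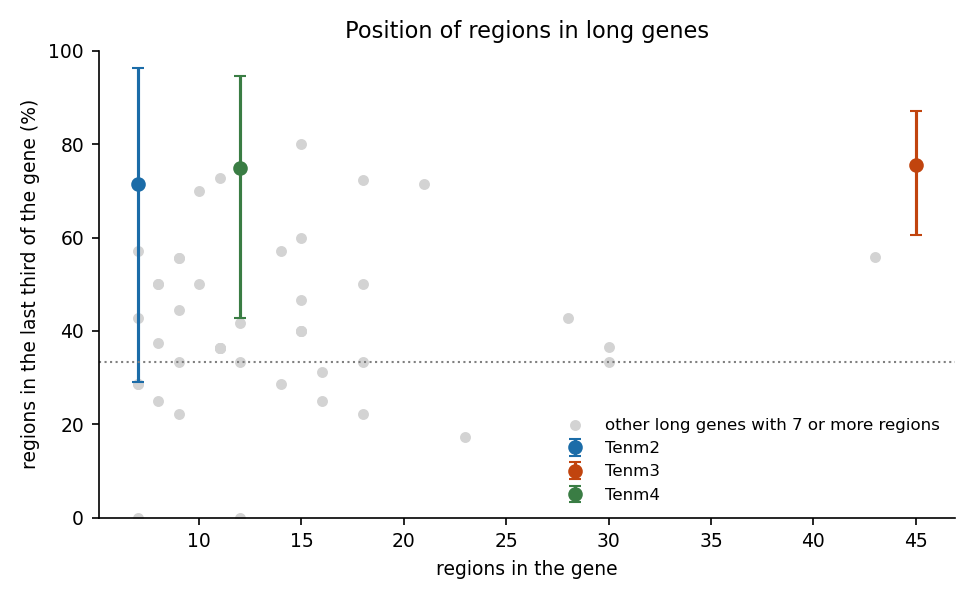
Each point is a protein-coding gene of 500 kb or more with 7 or more regions whose strand the promoter table gives. The horizontal axis is its number of regions, and the vertical the percentage of them in the last of 3 equal parts of the gene. Bars on the 3 teneurin genes are exact 95% limits, and the dotted line is where an even spread would lie. The 3 teneurin genes sit at 71.4% to 75.6%, in the upper part of a wide range.

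The crowding at the 3′ ends did not stop at the genes in every case. In the 600 kb beyond the 3′ end of Tenm3 there were 40 regions, 6.67 per 100 kb, from 2 to 14 in each 100 kb, against at most 12 in any such bin of the gene. Beyond its start, 600 kb held 1 region. At Tenm2 the 2 sides held 15 and 3 regions, or 2.50 and 0.500 per 100 kb, and at Tenm4 7 and 3, or 1.17 and 0.500. Bins were laid in full 100 kb from the 3′ end, so those past the start did not begin at it. At Tenm2 (1230 kb) they ran from 1300 to 1900 kb, and at Tenm4 (740 kb) from 800 to 1400 kb. Of the 7 regions past the 3′ end of Tenm4, 5 lay in the bin farthest from the gene, and the nearest bin held no region. The first region past the 3′ end lay 115 kb away from Tenm4, 18.9 kb from Tenm3 and 4162 bp from Tenm2. That Tenm2 neighbour, chr11:36002287-36002494, had 29 against 8 tags (fold 4.22) and lies just outside the 2000 bp taken here. The list does not tell apart stretches with no methylation, with equal methylation in both libraries, or with too few CpG sites to be captured, so the empty upstream parts cannot be assigned to any of these.

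**Figure D4:**
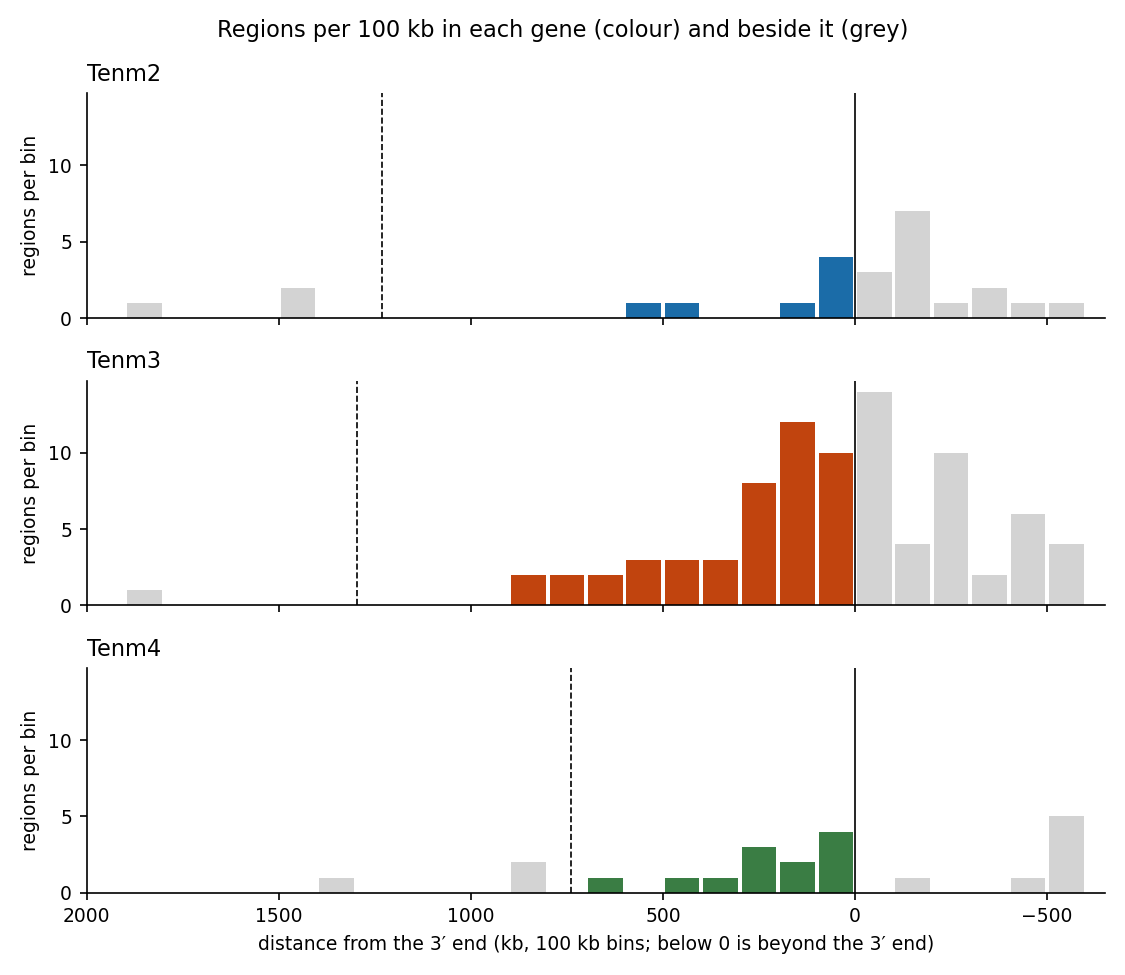
Bars give the number of regions in 100 kb bins by distance from the 3′ end of each gene. Bins that hold any part of the gene are in colour, and the next 600 kb of bins on either side in grey. The solid line is at the 3′ end and the dashed line at the start. In the grey bins beyond the 3′ ends of Tenm3 and Tenm2 lie 40 and 15 regions, and in those beyond their starts 1 and 3.

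For their length, the 3 genes held different numbers of regions. Among 21887 protein-coding genes 45.2% carried at least 1 region, and among the 227 of 500 kb or more 94.7% did, so carrying a region is the rule for a gene of this length. The median density of these 227 was 0.469 per 100 kb (quartiles 0.226 and 1.02). Tenm3 ranked 8th of them by density, Tenm4 35th and Tenm2 94th, with 96.9%, 85.0% and 58.8% of the other long genes below them. The ranks depend on the genes compared, and against genes of 200 kb or more they were 100, 313 and 623 of 990, in the same order. The chromosomes that hold the genes had 1.76 (chromosome 8), 1.47 (chromosome 7) and 2.02 regions per 100 kb (chromosome 11), so Tenm3 lay above the mean of its chromosome, Tenm4 near it and Tenm2 below it.

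**Figure D5:**
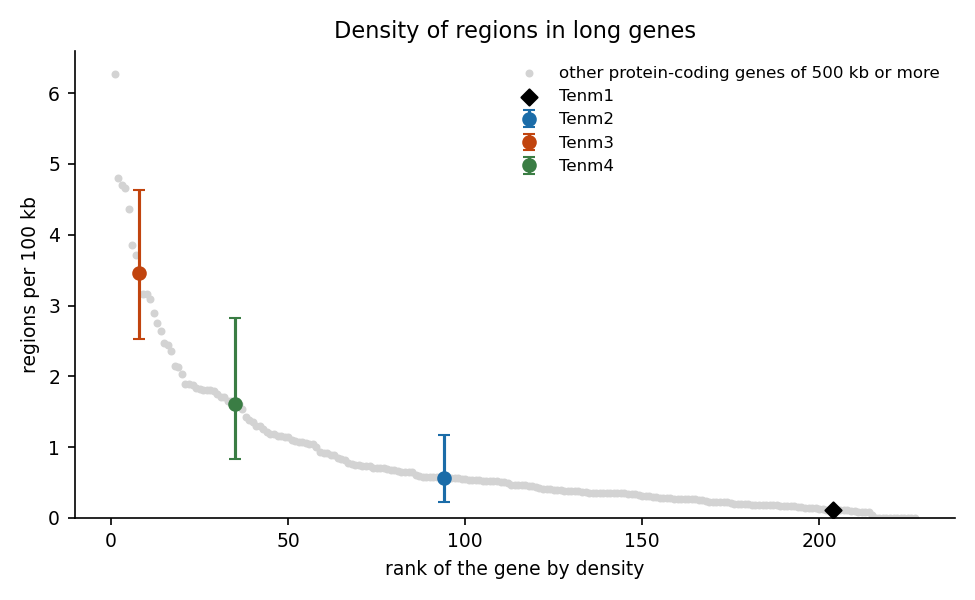
Each point is a protein-coding gene of 500 kb or more, ordered by its regions per 100 kb. Bars on the 3 teneurin genes are exact Poisson 95% limits, and the diamond is Tenm1. Tenm3 stands on the steep left part at 3.46, Tenm4 at 1.61 and Tenm2 at 0.567 on the flat part.

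Genes of closest density to each teneurin gene were named by a fixed rule. For Tenm3 they were Camta1 (3.72 per 100 kb), Enox1 (3.16), Dock1 (3.16), Ank2 (3.09) and Smyd3 (3.86). For Tenm4 they were Pde4d (1.61), Ppargc1a (1.65), Sorcs3 (1.66), Arhgap26 (1.54) and Dlgap2 (1.71). For Tenm2 they included Fgf14, Unc13c, Lhfpl3 and Pde4b, with 0.562 to 0.573 per 100 kb on 3 or 4 regions each. Likeness here is in density alone.

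The fourth teneurin gene, Tenm1 on chromosome X (42527866 to 43429168), held 1 region, 0.110 per 100 kb (limits 0.00280 to 0.615). That region, chrX:43031742-43031942, had 36 against 8 tags and a fold of 5.21, within the range of the other 3 genes. Chromosome X as a whole held 0.325 regions per 100 kb, below the 3 autosomes named above, and its part in the count of Tenm1 was not tested.

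The genes of the proteins that teneurins bind also carried regions, in 4 of 6. Among the latrophilin genes, Adgrl2 held 9 regions (5.07 per 100 kb, limits 2.32 to 9.62), Adgrl3 6 (0.738, 0.271 to 1.61) and Adgrl1 2 (4.36, 0.528 to 15.8). All 9 of Adgrl2 lay in the 3′ part of the gene, as did 3 of 6 in Adgrl3 and 1 of 2 in Adgrl1. No single strand was given for Flrt1, so its regions were not placed. In the other long genes with a strand 43.8% of regions lay in the 3′ part. Adgrl1 and Adgrl2 are shorter than those genes, and these shares were not tested. The highest fold of the group was in Adgrl3, at chr5:81766050-81766283, with 35 against 4 tags (fold 8.89), followed by the 8.31 of Flrt1 at chr19:7138288-7138539 (39 against 5 tags). Adgrl2 reached 5.87 and Adgrl1 4.07. Flrt1 held 5 regions, while Flrt2 (93.2 kb) and Flrt3 (13.3 kb) held none that passed the authors' limit. A count of 4 of 6 genes stands beside the 45.2% of all protein-coding genes, a set not matched for length, and was not tested. Adgrl3 is 809 kb long, and among genes of 500 kb or more 94.7% carried a region.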

How the data were processed

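The series holds 4 libraries of 1 sample each, and the data used are 1 region list. MACS 2.2.6 made it, per the file headers, with oil as treatment and tamoxifen as control, after keeping at most 1 tag per position, with tags of 130 bp extended to 201 bp, the larger library scaled to the smaller, no regional background and a q cutoff of 1e-04. Trim Galore, HISAT2 and mm10 are named in the submitters' processing notes. The deposited pileup is a signal value, the oil tags at the summit. The deposited fold enrichment is a ratio with 1 added to both parts. The headings of 2 columns were lost, and by their place they are the -log10 p and -log10 q values as deposited by the authors.

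Tamoxifen tags were computed here from pileup and fold. Divided by the library factor of 0.763 they were whole, within 0.02 tags, in 97.5% of regions, and the other 980 regions sat at the genome mean, which means 2 or fewer tags. Gene bodies came from the RefSeq table of the GRCm38.p6 assembly, where all 3 teneurin genes were found by symbol. Strand and starts came from the RefSeq promoter table. The table lists no exons, so exon and intron were not told apart. A region was assigned to a part of a gene by its midpoint.

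The genes, the lists and the alternatives were chosen with earlier results of these data known. Regions were named as those of highest and lowest fold, most oil tags, greatest length, nearest to each gene end and closest together, with the longest empty stretch. Others named, such as all 7 of Tenm2 and regions of next highest fold, were chosen after their values were seen. Tags were read at the oil summit, a choice that raises folds. The comparison genes are Tenm1, the latrophilin and FLRT genes and, per teneurin gene, the 5 long genes nearest in density, of which 1 is not reported here. The counting by gene part and the recovery of tags were tested on simulated data. No test was made, since each group has 1 sample. Python 3.11.15, pandas 2.3.3, scipy 1.17.1 and matplotlib 3.10.9 were used.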

Additional observations from a re-analysis of the deposited data

How the results depend on the processing

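Counts, densities, median folds and shares in the 3′ part of the gene were recomputed with -log10 q limits of 6 and 10, with no flank or one of 5000 bp, with midpoints in place of overlaps and with regions joined within 1000 bp. The listed starts, the removal of regions over other genes and the count of regions passing with unscaled tags were chosen after seeing the data. Of 120 values in all, 110 stayed close to the reported one. Close means within 1.5 times for a count and within exact 95% limits of the reported value for the rest. For the percentage of long genes below, these were binomial limits over the genes compared. With few regions such limits are wide. For Tenm2 those of the median fold run from its lowest fold, 2.56, to its highest, 4.91. With no flank or with midpoints the counts were unchanged, so the tally is a weak check. At a -log10 q of 10 Tenm2 kept 5 regions, Tenm3 34 and Tenm4 8. The share in the 3′ part ran from 50% to 75% in Tenm2, 52.9% to 76.7% in Tenm3 and 72.7% to 80% in Tenm4.

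The other 10 values lay outside these bounds. Without regions over other annotated genes, Tenm2 had 2 regions, 0.162 per 100 kb. From its listed start, Tenm3 had 7.57 per 100 kb and 52.9% in the 3′ part. With unscaled tamoxifen tags the median fold of Tenm3 was 3.45, and without the added 1 that of Tenm4 was 6.48. Against genes of 200 kb or more, 37.1%, 89.99% and 68.5% of genes were below Tenm2, Tenm3 and Tenm4, and with joined regions 51.3% were below Tenm2. These settings leave out regions, shorten the gene, drop the scaling or change the genes compared. No paired analysis was possible because each group has 1 sample. Depth limits the regions with fewest tags most, among them some of high fold, such as Tenm4 chr7:96702700-96703037 (27 against 4 tags, limits 3.08 to 34.8).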
